A study of Mus musculus with 15 samples.

Results

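EZH2 peaks that also carried FLAG-tagged EZHIP were taken from mouse embryonic fibroblasts, by counting every interval of the deposited EZH2 list that shared at least 1 bp with an interval of the deposited FLAG list. The rule selected 410 of 902 EZH2 peaks (45.5%, exact Clopper-Pearson 95% interval 42.2 to 48.8%, counting error only), and 492 EZH2 peaks met no FLAG interval. The cells carried floxed Eed alleles and expressed wild-type EZHIP from a stably integrated lentivirus, and their libraries are labelled EEDflox_wtORF. No drug or Cre treatment is named in those library titles. One library each was made with antibodies to EZH2, FLAG and H3K27me3, and FLAG is taken here to mark EZHIP, the remaining target that the series design names. The series holds 15 libraries, of which 12 (DMSO, tazemetostat, EED-null and M406E) were not analysed here. With 1 library per antibody there is no replicate error for any value, and no difference between cell conditions was measured. The lists give positions only, in build mm9, on a grid of 200 bp. They hold no RNA values, so the labelled cell type was not checked against marker genes.

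EZH2 is the catalytic subunit of Polycomb repressive complex 2 (PRC2), which methylates lysine 27 of histone H3. The EED subunit binds the finished mark, H3K27me3, and this binding stimulates the enzyme, which lets the mark spread from the sites where the complex is recruited. In mammals these recruitment sites are largely CpG islands of silent developmental genes, many of which encode transcription factors of other lineages. EZHIP is an inhibitor of PRC2 that is normally limited to the germ line and is expressed aberrantly in some posterior fossa ependymomas. The H3K27me3 list used here is labelled as the residual mark in cells that express EZHIP.

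Gene names were attached to 85 of the 410 peaks from recalled knowledge of the mouse genome map, partly as it stands in the later build GRCm38, and not from an annotation of mm9. They were chosen after the peaks had been seen. The names are therefore labels for places, neither a sample nor a measure of enrichment, and whether a peak covers a transcription start was not determined. All 101 gene symbols used, including those of 7 loci without FLAG, lay on the same chromosome in RefSeq (GRCm38.p6), and their order was the same on 19 of 19 chromosomes. This checks chromosome and order only, not position.

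Promoter sequences of 5 of these genes are shown because CpG-rich DNA is the kind of sequence at which PRC2 is known to settle. They belong to the loci of the pluripotency and neural factor Sox2, the forebrain factor Otx2, the homeobox gene Evx2 beside the HoxD cluster, the GABA-synthesizing enzyme Gad1 and the proneural factor Neurog1. Each runs 5′ to 3′ on the gene's strand, from 250 bases before the annotated start to 50 after it (RefSeq, GRCm38.p6). Sox2 and Gad1 lie on the plus strand and the others on the minus strand. Capitals mark each CG, and the dinucleotide reads the same on both strands.
Sox2: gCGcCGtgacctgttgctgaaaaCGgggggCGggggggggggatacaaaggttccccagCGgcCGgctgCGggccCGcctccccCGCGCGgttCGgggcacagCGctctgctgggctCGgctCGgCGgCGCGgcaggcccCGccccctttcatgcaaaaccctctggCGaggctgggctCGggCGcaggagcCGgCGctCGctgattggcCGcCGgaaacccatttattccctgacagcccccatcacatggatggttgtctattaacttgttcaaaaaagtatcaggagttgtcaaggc
Otx2: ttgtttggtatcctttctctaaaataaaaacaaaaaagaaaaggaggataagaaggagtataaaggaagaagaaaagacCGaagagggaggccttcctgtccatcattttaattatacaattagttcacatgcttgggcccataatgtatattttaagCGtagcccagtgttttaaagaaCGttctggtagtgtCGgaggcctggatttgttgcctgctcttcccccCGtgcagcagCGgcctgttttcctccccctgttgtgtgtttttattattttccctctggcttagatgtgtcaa
Evx2: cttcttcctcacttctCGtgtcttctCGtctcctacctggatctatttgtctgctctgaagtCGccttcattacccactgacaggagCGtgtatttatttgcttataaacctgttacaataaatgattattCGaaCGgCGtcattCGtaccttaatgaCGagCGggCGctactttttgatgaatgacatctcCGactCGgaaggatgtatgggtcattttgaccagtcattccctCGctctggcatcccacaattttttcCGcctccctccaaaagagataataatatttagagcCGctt
Gad1: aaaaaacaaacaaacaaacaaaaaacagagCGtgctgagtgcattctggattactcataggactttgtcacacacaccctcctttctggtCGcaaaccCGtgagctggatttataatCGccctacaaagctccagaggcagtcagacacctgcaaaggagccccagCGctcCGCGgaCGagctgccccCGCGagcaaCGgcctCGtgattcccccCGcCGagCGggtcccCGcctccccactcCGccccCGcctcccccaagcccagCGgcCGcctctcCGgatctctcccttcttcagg
Neurog1: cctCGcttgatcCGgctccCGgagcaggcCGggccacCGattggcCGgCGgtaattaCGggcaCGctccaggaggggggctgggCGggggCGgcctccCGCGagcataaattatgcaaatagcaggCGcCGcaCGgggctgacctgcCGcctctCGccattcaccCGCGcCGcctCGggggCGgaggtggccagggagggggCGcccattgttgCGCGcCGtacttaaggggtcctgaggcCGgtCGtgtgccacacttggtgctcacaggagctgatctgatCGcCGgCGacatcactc
The windows held 27 CG for Sox2, 6 for Otx2, 16 for Evx2, 21 for Gad1 and 32 for Neurog1. Of the 87 gene symbols at the named peaks, 71 had a promoter in the RefSeq table, with a median of 20 CG in 300 bases. The median over all 27025 promoters was 7 CG, so the Otx2 window, with 6, was not CpG-rich. At least 15 CG were present in 78.9% of the 71 and in 35.2% of all promoters. The 71 were picked by hand and are mostly genes of transcription factors, so this describes those genes and not the 410 peaks.

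FLAG lay nested inside EZH2. The 410 peaks held 423 of the 438 FLAG intervals, and every one of the 423 lay wholly within its EZH2 peak. One FLAG interval was found in 399 peaks, 2 in 9 peaks and 3 in 2 peaks, those of the Sox2 and Otx2 loci. Since both lists were used to choose the peaks, these values and those of the next 2 paragraphs are a description. The EZH2 peaks were 3599 to 33999 bp wide, with a median of 7799 bp (interquartile range 5999 to 11399 bp). FLAG covered 8.41 to 90.1% of a peak's bases, with a median of 51.7% (interquartile range 37.0 to 65.0%). EZH2 reached past the outermost FLAG edge by a median of 1400 bp on the shorter side and 2200 bp on the longer side. It did so by at least 1 kb on both sides in 332 peaks (81.0%, 76.8 to 84.7%), and in 3 peaks a FLAG edge fell exactly on the EZH2 edge. The FLAG centre lay within 1 kb of the EZH2 centre in 356 peaks (86.8%, 83.2 to 89.9%), and the EZH2 midpoint was under FLAG in 373 (91.0%, 87.8 to 93.6%).

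The covered share was larger in wider peaks. The median was 38.1% in the 39 peaks under 5000 bp, 41.4% in the 71 peaks from 5000 to under 6000 bp and 51.6% in the 103 from 6000 to under 8000 bp. It was 57.8% in the 101 peaks from 8000 to under 12000 bp and 62.9% in the 96 peaks of 12000 bp or more. The shorter flank of EZH2 past FLAG changed less, from a median of 1200 bp in the narrowest class to 2200 bp in the widest. EZH2 width and FLAG span had a Spearman correlation of 0.81 over the 410 peaks, which is given as a description, since FLAG cannot exceed the peak that holds it.

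**Figure D1:**
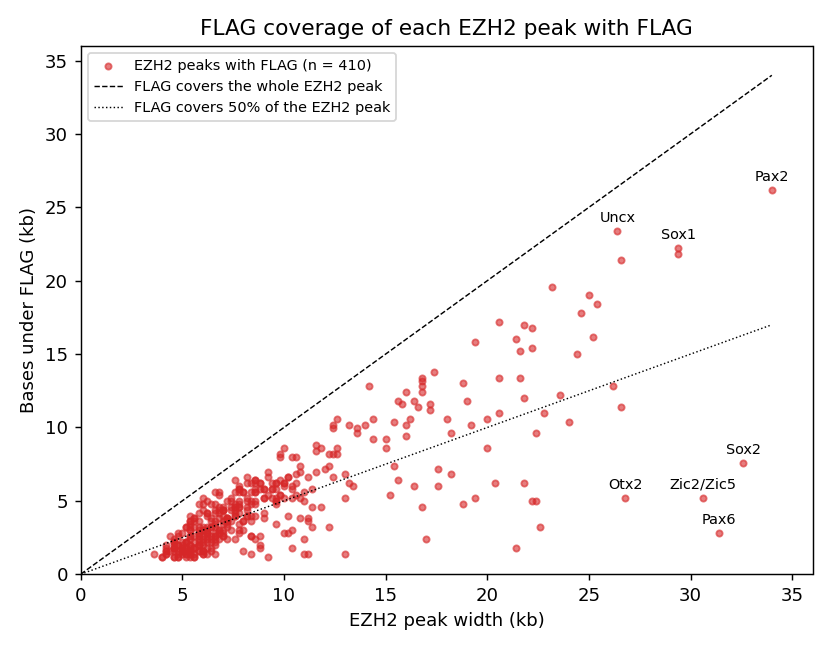
Each point is 1 of the 410 EZH2 peaks with FLAG, with its width (x axis, kb) and its bases under FLAG (y axis, kb). The dashed and dotted lines mark 100 and 50% coverage, and 7 of the widest peaks are named: Uncx, Pax2 and Sox1 lie above the 50% line, and Sox2, Otx2, Zic2/Zic5 and Pax6 far below it.

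Among the 10 widest peaks FLAG filled most of some and a small part of others. These are not 2 separate classes. Over the 96 peaks of 12000 bp or more the interquartile range of the share was 42.9 to 73.7%. At the Pax2 locus, which encodes a paired-box factor of kidney, ear and midbrain, EZH2 covered chr19:44806001-44839999 (33999 bp) and 2 FLAG intervals covered 77.1% of it. At Uncx, a homeobox gene of the somites, FLAG covered 88.6% of chr5:140009401-140035799. At Onecut1, a factor of liver and motor neurons, it covered 80.5% of chr9:74692801-74719399. At Sox1, a marker of neural progenitors, it covered 75.5% of chr8:12379201-12408599, and at Hmx1, a factor of the eye and ear, 74.1% of chr5:35719601-35748999. FLAG thus filled most of these 5 peaks, in a single interval at all but Pax2. By contrast, at Pax6, which directs development of the eye and forebrain, a single FLAG interval of 2799 bp covered 8.91% of chr2:105498601-105529999 and lay 5100 bp off centre. At Zic2/Zic5, a divergent gene pair active in the dorsal neural tube, FLAG covered 5199 of the 30599 bp of chr14:122862001-122892599.

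The Sox2 and Otx2 peaks were the ones with 3 separate FLAG intervals. In the Sox2 peak (chr3:34537601-34570199) they were 1399, 2599 and 3599 bp wide and spanned 21999 bp, of which 7597 bp were under FLAG (23.3% of the peak). In the Otx2 peak (chr14:49270401-49297199) they were 1999, 1399 and 1799 bp wide and covered 19.4%. The remaining peak among the 10 widest, at Pou3f2, a POU factor of the brain, had 1 FLAG interval over 42.9% of chr4:22402201-22428799. The lowest share of all was 8.41%, at chr12:120074401-120095799, and the highest 90.1%, at chr10:79950001-79964199. Olig3 (10.8%) and Gata4 (12.5%), which encode a hindbrain and spinal cord factor and a heart and endoderm factor, were also among the 5 lowest, together with chr13:113777401-113788399 (12.7%). The FLAG centre lay farthest off the EZH2 centre at Sim1, a hypothalamic factor, by 6700 bp. It was followed by Pax6 and the heart factor Nkx2-5, both at 5100 bp, Nkx2-3 at 4800 bp and the lung, thyroid and forebrain factor Nkx2-1 at 4300 bp.

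**Figure D2:**
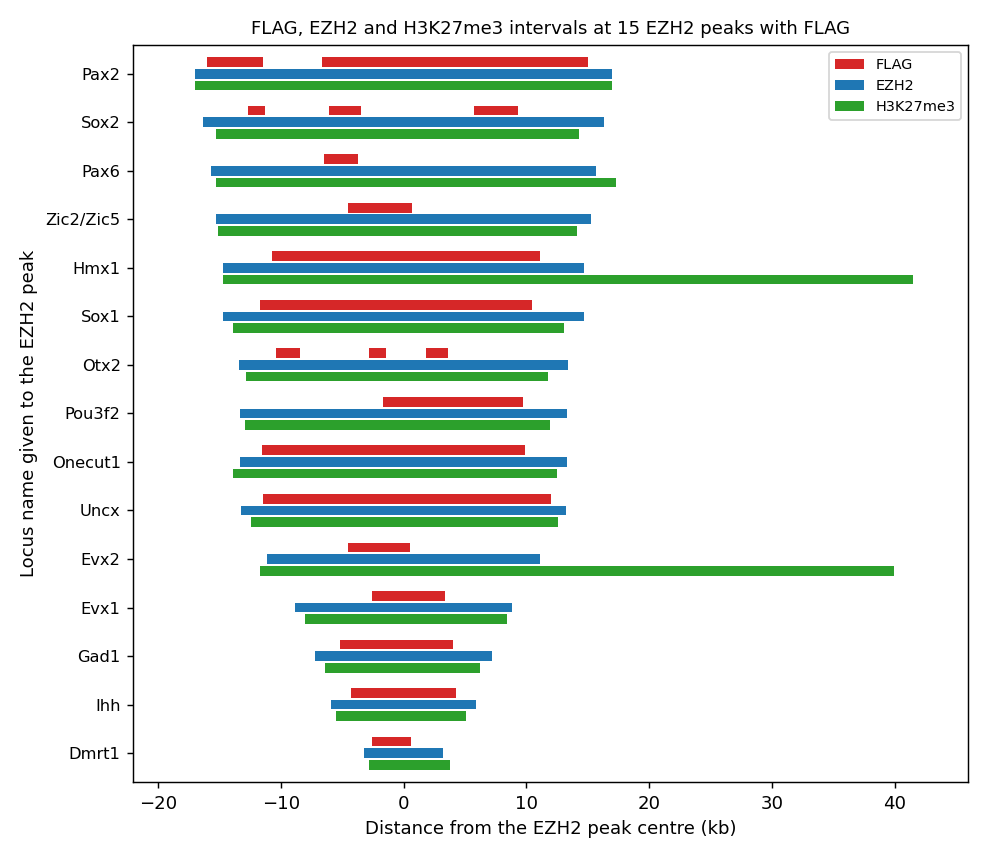
FLAG (red), EZH2 (blue) and H3K27me3 (green) intervals at the 10 widest EZH2 peaks with FLAG and at 5 further named peaks, by distance from the EZH2 centre (x axis, kb). FLAG lies inside EZH2 throughout, in 3 pieces at Sox2 and Otx2, while H3K27me3 ends near the EZH2 edges except at Hmx1 and Evx2, where it runs on to the right.

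Related genes differed in how far FLAG filled the peak. All 5 SoxB genes carried FLAG, at peaks 13199 to 32599 bp wide. Most EZH2 peaks of such width did, since of those of 12000 bp or more 96 carried FLAG and 14 did not. The count is therefore not particular to SoxB genes, which were also named after the peaks had been seen. Sox1, Sox21, Sox14, Sox3 and Sox2, which encode factors of early neural cells, had shares of 75.5, 73.8, 69.1, 47.0 and 23.3%. Among the paired-box genes the values were 77.1% at Pax2, 75.7% at the muscle and neural crest gene Pax7, 48.2% at the B-cell gene Pax5 and 8.91% at Pax6. Of 10 peaks at genes of basic helix-loop-helix factors, which start neuronal and glial differentiation, the lowest was Olig3 at 10.8% and the highest Olig2 at 83.5%, with a median of 67.2%. Neurog1 stood at 77.5%, and Neurod2 and Atoh1 both at 72.4%. The 7 named Nkx peaks ranged from 27.4% at Nkx2-5 to 71.9% at Nkx2-2, with a median of 42.9%. The 4 POU peaks ranged from 26.8% at Pou4f2 to 70.4% at Pou4f1. Each of these 5 families held peaks above and below the median of 51.7% over all peaks with FLAG.

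Genes of the GABA pathway and of secreted signals were also among the named places. Gad1 and Gad2, the enzymes that make GABA, had FLAG over 63.9 and 39.0% of their peaks, and Slc32a1, the vesicular GABA transporter, over 70.6%. The ligand genes Shh, Ihh and Wnt1 stood at 78.6, 72.9 and 64.1%. Over all 85 named peaks the share ranged from 8.91 to 88.6% and the median width was 16799 bp, and 82 of the 85 were wider than the median of the 410, so the named places lean to the wide peaks.

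Every one of the 410 peaks met an H3K27me3 interval, and each met exactly 1 (410 of 410, 95% interval 99.1 to 100%). The H3K27me3 list was not used to choose the peaks. Of all 902 EZH2 peaks 95.2% met an H3K27me3 interval, of the 492 without FLAG 449 did (91.3%, 88.4 to 93.6%), and of the 257 without FLAG that were at least as wide as the narrowest peak with FLAG 248 did (96.5%, 93.5 to 98.4%). Wider peaks have more room to meet an interval, so the last share is the closer comparison, although not matched for width, and there 9 peaks of 257 met none. FLAG bases were wholly under H3K27me3 in 408 of 410 peaks. The EZH2 bases outside FLAG were less fully covered, by a median of 85.7% per peak. They lie mostly at the EZH2 edges and FLAG near the centre, so the 2 values also differ in place. A different measure is the share of peaks covered at 1 point. H3K27me3 covered the EZH2 centre in 94.6% of the 257 peaks without FLAG. At 1600 bp to its left and right, still within EZH2 in all 257, it covered 72.8 and 66.9% of them. In the 410 peaks with FLAG these shares were 99.8, 96.3 and 97.1%. The median EZH2 width was 7799 bp in the 410 and 4599 bp in the 257, so these shares are not matched for width.

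H3K27me3 was slightly narrower than EZH2 at these peaks. The mark covered 48.1 to 100% of the EZH2 bases, with a median of 93.3%, and the median ratio of H3K27me3 to EZH2 width was 0.958. The H3K27me3 interval was the narrower one at 247 peaks (60.2%, 55.3 to 65.0%), against 64.4% of all 859 EZH2 peaks with H3K27me3. It started and ended inside the EZH2 peak or on its edge at 213 peaks, reached past 1 edge at 156 and past both at 41. Both edges lay within 1 kb of the EZH2 edges at 278 peaks (67.8%, 63.0 to 72.3%), against 68.6% of all 859. Less than 50% of the EZH2 bases were covered at 2 of 410 peaks (0.488%, 0.0591 to 1.75%), against 7.92% of all 859 EZH2 peaks with H3K27me3. Among the 248 peaks without FLAG that reached the width of the narrowest one with FLAG it was 17 (6.85%, 4.04 to 10.7%). Those peaks were still narrower, with a median width of 4599 bp over all 257 of them, so the shares are not matched for width. Within widths under 5000 bp the counts were 0 of 39 with FLAG and 12 of 162 without, and from 5000 to under 6000 bp 2 of 71 and 3 of 36. The lowest values with FLAG were 48.1% at chr5:137503401-137508799 and, at chr4:114595601-114600799, 2599 of 5199 bp, followed by 61.3% at chr13:69874401-69880599.

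The edges can be compared most directly where an H3K27me3 interval met a single EZH2 peak, which was so for 368 of the 410. At their 736 edges H3K27me3 ended a median of 200 bp short of EZH2, 1 step of the grid, and lay inside at 61.4% of edges. At 422 edges of peaks without FLAG that reached the width of the narrowest peak with FLAG it ended a median of 400 bp short and lay inside at 69.9%. The median EZH2 width was 4599 bp in these 211 peaks and 7799 bp in the 368, so widths were then compared within classes. For these unshared intervals the median width ratio was higher with FLAG than without in each of 5 width classes. It was 0.880 with FLAG against 0.841 without under 5000 bp, 0.933 against 0.846 from 5000 to under 6000 bp, and 0.947 against 0.848 from 6000 to under 8000 bp. In the 2 widest classes it was 0.931 against 0.891 and 0.962 against 0.945, where 9 and 5 peaks without FLAG remained. With shared intervals included, the order in those 2 classes was the other way, 0.939 with FLAG against 0.942 without and 0.975 against 1.63, and in the 3 narrower classes it was the same. The interquartile ranges overlapped in every class, and with 1 library per antibody the differences have no replicate check.

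**Figure D3:**
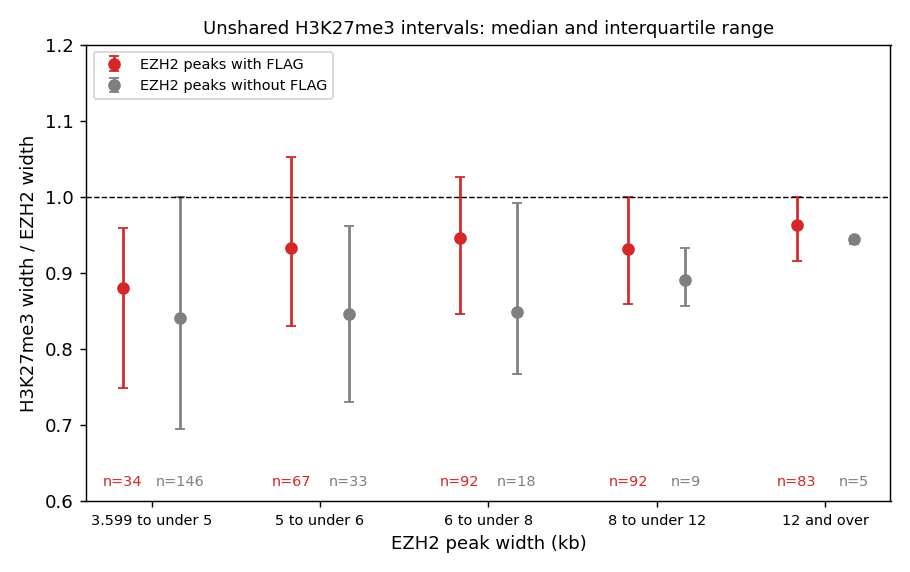
Median ratio of H3K27me3 width to EZH2 width (y axis) by EZH2 width class (x axis, kb) for peaks with FLAG (red) and without (grey), where the H3K27me3 interval met 1 EZH2 peak. Bars are interquartile ranges and n is the number of peaks. All 10 medians lie between 0.841 and 0.962, below the dashed line of equal width.

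Measured from FLAG, H3K27me3 and EZH2 ended at nearly the same distance. Over 820 edges, H3K27me3 reached a median of 1600 bp past the FLAG edge, and EZH2 reached a median of 1800 bp. Around the centre of the 399 single FLAG intervals, 2000 bp to the left, FLAG still covered 49.6% of peaks, EZH2 96.7% and H3K27me3 89.5%. At 4000 bp to the left these shares were 16.5, 44.1 and 43.6%. From 6000 bp outward H3K27me3 covered more peaks than EZH2, with 22.6 against 19.5% to the left and 26.1 against 21.8% to the right. The centre of an unshared H3K27me3 interval was nearer to the EZH2 centre than to the FLAG centre at 213 of 368 peaks, nearer to the FLAG centre at 115 and equally near at 40. EZH2 and unshared H3K27me3 widths had a Spearman correlation of 0.93, and FLAG span and H3K27me3 width one of 0.79, both over 368 peaks. These are descriptions over intervals nested in each other on the same chromatin.

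**Figure D4:**
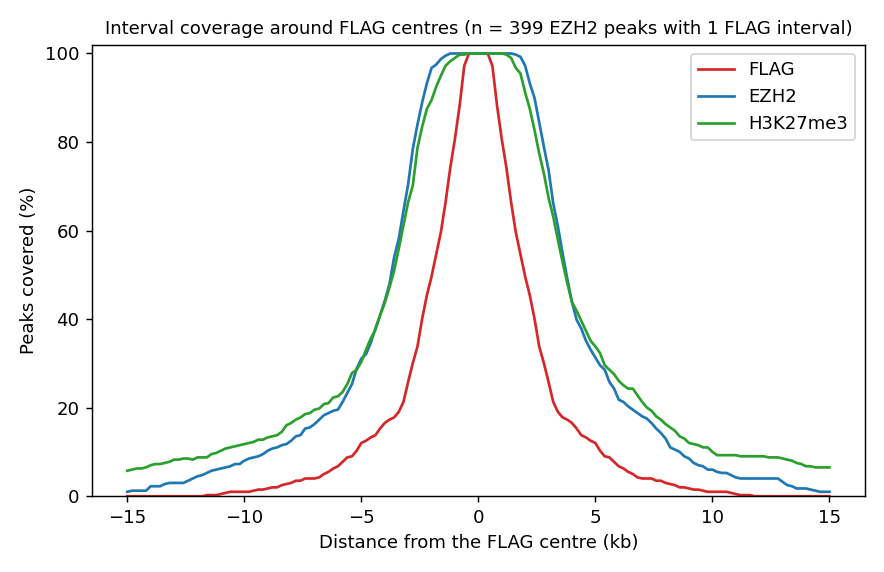
Share of 399 EZH2 peaks with a single FLAG interval (y axis, %) covered by FLAG, EZH2 and H3K27me3 at each distance from the FLAG centre (x axis, kb, steps of 200 bp). At 2 kb to either side FLAG covers 49.6%, while EZH2 and H3K27me3 cover 89.5% or more, and beyond 6 kb the H3K27me3 curve lies above that of EZH2.

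At a minority of peaks H3K27me3 ran far beyond EZH2. It passed an EZH2 edge by over 5 kb at 52 of 410 peaks (12.7%, 9.62 to 16.3%), against 12.6% of all EZH2 peaks with H3K27me3, so this share was at the background. An H3K27me3 interval was shared with another EZH2 peak at 42 of 410 (10.2%, 7.48 to 13.6%), against 10.5% of all EZH2 peaks. The largest reach was 56400 bp, at chr15:74343401-74354199. It was followed by 39600 bp at Mir9-3, a gene of the neural microRNA miR-9 (chr7:86639201-86663599), by 36000 bp at its neighbour chr7:86676801-86694999 under the same 62399 bp interval, and by 31600 bp at chr4:139405201-139411399. At Cdx2, a homeobox gene of the trophectoderm and gut, the interval was 57399 bp wide against 24999 bp of EZH2 and reached 29400 bp past its left edge. At all 5 of these peaks the H3K27me3 interval also met another EZH2 peak. At Hmx1 the 56199 bp interval met no other EZH2 peak and reached 26800 bp past the right edge.

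Some shared intervals held peaks with and without FLAG side by side. Of 43 H3K27me3 intervals that met 2 or more EZH2 peaks, 8 held peaks with FLAG only, 10 held none with FLAG and 25 held both kinds. The widest EZH2 peak carried FLAG in 21 of these 25. Peaks with FLAG were wider in the whole list too, with a median of 7799 bp against 3599 bp without. The count is therefore not particular to shared intervals. One such mixed interval lay at the HoxD cluster, whose homeobox genes pattern the limbs and trunk. Its 51599 bp interval (chr2:74485601-74537199) met 3 EZH2 peaks. The Evx2 peak (chr2:74486201-74508399, 22199 bp) carried a FLAG interval of 4999 bp, chr2:74492801-74497799. It was named after Evx2 only, and whether it also reaches a Hox gene was not determined. The peaks chr2:74512201-74514599 and chr2:74517601-74537599 (19999 bp), at Hoxd12/Hoxd11, met no FLAG interval. Evx1 beside the HoxA cluster carried FLAG over 34.1% of chr6:52257001-52274599 (17599 bp). The 3 peaks named Hoxa11/Hoxa13, the 3 named Hoxb13 and the 6 from Hoxc13 to Hoxc9 had none, as had 492 of all 902 EZH2 peaks. The Hoxa11/Hoxa13 peaks were 2399 to 2999 bp wide, narrower than any peak with FLAG (3599 bp or more). Those at Hoxb13 were 2399 to 12799 bp wide and those from Hoxc13 to Hoxc9 3399 to 16999 bp, so these loci were not compared at equal width. A wide EZH2 peak was not always one with FLAG. The Zic1/Zic4 peak of 46399 bp, the widest EZH2 peak of all 902, met no FLAG interval, and neither did the Isl1 peak of 20999 bp.

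Peaks with FLAG had other EZH2 peaks nearby about as often as those without. Another EZH2 peak lay within 100 kb of 108 of 410 (26.3%, 22.1 to 30.9%), of 111 of 492 without FLAG (22.6%, 18.9 to 26.5%) and of 24.3% of all EZH2 peaks. That neighbour carried FLAG for 50 of the 108 (46.3%, 36.7 to 56.2%) and for 56 of the 111 without FLAG (50.5%, 40.8 to 60.1%). Over all 219 EZH2 peaks with such a neighbour it was 48.4%. Joining EZH2 peaks at gaps of up to 100 kb gave 93 clusters, of which 55 held both kinds, 19 held peaks with FLAG only and 19 held none. The remaining 683 EZH2 peaks stood alone, 302 of them with FLAG.

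At most 3 FLAG-bearing peaks fell in 1 cluster, in 4 clusters of 4 EZH2 peaks and in 2 clusters of 3. One of the clusters of 4 ran over chr19:44742001-44914199 around Pax2, where FLAG covered 48.1, 77.1 and 23.3% of the 3 peaks. In chr11:103509001-103673799 FLAG covered 1199 of 4799 bp of one peak and 70.5 and 44.0% of the others. In chr1:74898201-75003399, which includes Ihh, they were 46.7, 58.7 and 72.9%. The sexual and somite differentiation genes Dmrt1, Dmrt3 and Dmrt2 formed one of the clusters of 3 peaks, chr19:25577801-25752999, all with FLAG, over 3199 of 6399 bp at Dmrt1, 58.9% of the Dmrt3 peak and 33.9% of the Dmrt2 peak. Of the peaks with FLAG, the Sox2 peak was the most isolated, 7264601 bp from the next EZH2 peak. It was followed by chr2:38560201-38570799 at 6618201 bp and chr19:16944401-16953399 at 6410201 bp. Among EZH2 peaks without FLAG the largest such distance was 9259401 bp.

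The share of EZH2 peaks with FLAG ranged from 24.1% on chromosome X (7 of 29, 10.3 to 43.5%) to 68.4% on chromosome 19 (26 of 38, 51.3 to 82.5%). The interval of chromosome X lay below the overall 45.5%, and those of chromosomes 19 and 11 (61.8%, 49.2 to 73.3%) lay above it. With 20 chromosomes compared and no test made, this is a description. The median EZH2 width was 4199 bp on chromosome X and 6199 bp on chromosome 19. Among EZH2 peaks at least as wide as the narrowest one with FLAG, 61.5% carried FLAG over all chromosomes. The shares were 38.9% of 18 such peaks on chromosome X and 81.3% of 32 on chromosome 19. No intervals were computed for these shares, so whether they depart from 61.5% was not determined. The FLAG-bearing peaks of chromosome 19 include Pax2, Lbx1, Tlx1, Vax1, Nkx2-3 and the Dmrt genes, and those of chromosome X include Sox3.

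**Figure D5:**
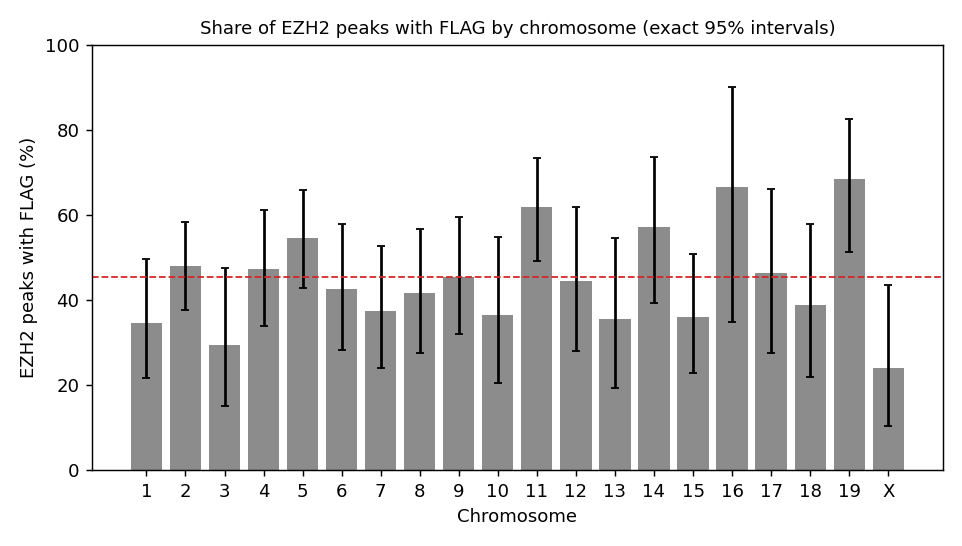
Share of EZH2 peaks with FLAG on each chromosome (y axis, %). Bars start at 0, whiskers are exact 95% intervals for counting error, and the dashed line is the share over all EZH2 peaks, 45.5%. Chromosome 19 is highest at 68.4% and X lowest at 24.1%.

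At the margin of the rule the lists left a clear gap. The smallest overlap was 1199 bp, a whole FLAG interval, and occurred at Sox17, an endoderm factor (chr1:4479401-4488599), and at chr2:155598001-155603599, chr14:18491001-18496599, chr5:30888401-30893799 and chr19:38169201-38174399 among others. Just outside it, the nearest EZH2 peaks without FLAG on chromosomes 19, X and 5 were 4801 bp (chr19:6418601-6421199), 5201 bp (chrX:11704201-11706999), 5801 bp (chr5:67605801-67615399) and 5801 bp (chr19:44754601-44760199) from a FLAG interval. A further one on chromosome 18 lay 4601 bp away. The 15 FLAG intervals outside EZH2 peaks were 1399 to 5599 bp wide and at least 268601 bp from the nearest EZH2 peak, and 9 of them met an H3K27me3 interval.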

How the data were processed

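Chromatin was fixed with paraformaldehyde, digested to mono-nucleosomes and immunoprecipitated, per the labels' protocols. Bowtie 1.0.0 and deepTools are named, with build mm9, per the submitters' processing notes. No peak caller, threshold, sequencing depth or input library was found, each being not given in the sources used here. As deposited, the lists hold peak starts and ends in bp, with no score or height, 1 list per library. Printed starts count from 1.

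Intervals sharing at least 1 bp were counted as overlapping (Python 3.11.15, pandas 2.3.3, NumPy 2.4.6), and shares carry exact Clopper-Pearson 95% intervals (SciPy 1.17.1), which cover counting error only. Neighbouring peaks are not independent, so these intervals may be too narrow. No test was made, since each antibody had 1 library. EZH2 peaks without FLAG were compared within width classes. Regions printed by position are the extremes of width, number of FLAG intervals, FLAG share, H3K27me3 share and reach, FLAG offset, clustering, isolation and distance to the rule's margin, and the Dmrt and HoxD regions and the other named loci were added after their values were seen. The peaks, measures and gene lists were chosen with earlier results of these data known. Overlap with annotated genes and base composition of the peaks were left out, because no annotation or sequence of mm9 was used here, and no file coordinates were converted between builds. Gene names were attached by recall, as the results state. Overlap and distance measures were tested on simulated lists.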

Additional observations from a re-analysis of the deposited data

How the results depend on the processing

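The number of EZH2 peaks with FLAG stayed at 410 with an overlap of 50% of the smaller peak or a distance of 1 kb. Neither setting could change it. Each FLAG interval at these peaks lay wholly within EZH2, and the nearest EZH2 peak without FLAG was 4601 bp from one. The number was 306 without the narrowest quartile of both lists. Of 26 alternative values, 20 stayed within the limits set around the reported value (counts within 1.5 times, shares and medians within their 95% intervals). The 306 is among these 20 by that limit. A distance of 1 kb or joined intervals could not lower the share of peaks with FLAG that met H3K27me3, which was 100%. The tally is therefore not a measure of robustness. The other 6 moved. Leaving out the narrowest quartile of H3K27me3 intervals lowered the share of peaks without FLAG that met one from 91.3 to 68.3%, while all 410 with FLAG still did. The H3K27me3 intervals were narrower without FLAG, with a median of 3199 bp and a minimum of 399 bp. With FLAG these were 7999 and 2599 bp. The setting thus falls on the narrower group, and no share at equal width was computed. Leaving out shared H3K27me3 intervals, an alternative chosen after seeing the data, lowered the median ratio of H3K27me3 to EZH2 width from 0.958 to 0.941. Leaving out peaks up to the median width raised the median FLAG share from 51.7 to 58.9%. Joining intervals within 5 kb in all 3 lists left 407 peaks with FLAG and lowered the share with a shared H3K27me3 interval from 10.2 to 6.63%. How many of the peaks that shared one were merged with each other was not counted. Another EZH2 peak lay within 50 kb of 18.5% and within 500 kb of 54.1%, by the construction of the gap. No paired analysis was possible because each antibody had 1 library. The alternatives on gene distance and sequence were not run, as they need an annotation and a genome of mm9. Without scores or depth, narrow intervals cannot be told apart from weak ones, a missing interval is not evidence of a missing signal, and edges are resolved to 200 bp.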
